A study of Mus musculus with 2 samples.

Results

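Of the 3153 FLAG-HLF peaks, 538, or 17.1% (exact 95% interval 15.8 to 18.4%), lay in the intergenic sequence beside genes, between 1 and 20 kb from a protein-coding gene. These gene-flanking peaks were chosen by position alone. The centre of each peak (200 bp after its deposited start) had to lie on chromosomes 1 to 19, inside no annotated gene of any kind, and more than 1 kb and up to 20 kb from the nearest end of a protein-coding gene. HLF, or hepatic leukemia factor, belongs to the PAR bZIP family of DNA-binding regulators and is expressed in haematopoietic stem cells. The series mapped where a tagged form of it binds.

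The series holds 2 libraries of chromatin immunoprecipitation with an anti-FLAG antibody followed by sequencing. Both came from Lin-Sca-1+c-Kit+ cells, a gate enriched for blood stem and progenitor cells, of C57BL/6 mice aged 8 to 10 weeks, with the tissue given as blood. The FLAG-HLF library (n = 1) came from cells infected with a MigR1 retrovirus carrying 3xFLAG-HLF/HLF, and the control (n = 1) from cells infected with the empty MigR1 vector. Both were cultured for 5 days with SCF (50 ng/ml), IL-7 and Flt3L (10 ng/ml each) and IL-3 (5 ng/ml), so HLF was expressed from a viral vector in cultured cells. A peak list measures no gene expression, so the cell type could not be checked against markers. The control library was not analysed here. The deposited list gives no read counts, peak heights or scores, so the depth behind a peak is unknown, and no spread between cultures can be given. Every interval and p-value below covers counting error over peaks or genes only and treats peaks as independent, which neighbouring peaks are not.

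PAR bZIP proteins bind DNA as dimers through a basic region and leucine zipper, and recognise a palindromic word close to those of C/EBP and CREB proteins. Sequence beside a gene can hold its distal promoter elements and enhancers. The nearest gene is only the closest in position, since an enhancer may act on a gene farther away.

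The bases of a peak could be read where it overlapped a tabulated RefSeq start window (GRCm38.p6, from 250 bases before a gene's start to 50 after it). This held for 2 of the 538 flanking peaks, of which 1 is shown. It lay upstream of the start of a long noncoding RNA (lncRNA) gene, at chr9:96896647-96897046, 4.16 kb from Pxylp1, a gene of glycan metabolism, and 260 bp before the start of Gm51657. The readable 191 bases (chr9:96896856-96897046, plus strand) are shown because they are the flanking peak's own sequence:

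Pxylp1 flanking peak, part: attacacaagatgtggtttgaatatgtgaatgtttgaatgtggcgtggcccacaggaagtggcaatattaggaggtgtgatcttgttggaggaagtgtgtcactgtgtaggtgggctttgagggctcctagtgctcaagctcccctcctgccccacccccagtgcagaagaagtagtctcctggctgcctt

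The words searched, each on both strands, were the PAR bZIP palindrome TTACGTAA, its variant TTATGTAA, the C/EBP palindrome TTGCGCAA, the cyclic AMP response element TGACGTCA and the AP-1 site TGAGTCA. No word is contained in another. None was present in this stretch. No match says only that these letters are not in this window, which covers a part of the peak and not its centre.

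The start windows of the genes beside the peaks were searched in the same way, over 513 windows of 408 of the 511 nearest coding genes. A gene with several tabulated starts has a window for each. The PAR bZIP palindrome was present in 2 of 513 windows, or 0.39% (0.0472 to 1.4%), against 24 of 20085 windows of all autosomal coding genes, or 0.119%. Its variant was present in 1 window, or 0.195%, against 0.906% of all. The C/EBP palindrome was in 0 of 513, where 3 counts would be a share of 0.585% and the exact upper limit is 0.717%, against 0.219% of all. The cyclic AMP response element was in 19 windows, or 3.7% (2.24 to 5.72%), against 2.3% of all, and the AP-1 site in 31, or 6.04% (4.14 to 8.47%), against 4.7% of all. For each of these words the interval over windows held the share of all coding windows, so no difference was detectable by window. Windows of the same gene are not independent. By gene, the PAR bZIP palindrome was in 2 of 408 flanked genes against 20 of 16457, its variant in 1 against 176 and the C/EBP palindrome in 0 against 40. The cyclic AMP response element was in 19 against 432, and the AP-1 site in 30 against 899. No interval was computed by gene. The start windows lie outside the peaks, so they describe the genes beside them.

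The 250 bases before the start are shown, in the direction of the gene, for 2 of the 3 flanked genes with a PAR bZIP word in a window, and for Dusp1, a flanked early response gene with a cyclic AMP response element. Capitals mark the words. G6pc (chr11:101367466-101367715, plus strand) encodes the catalytic subunit of glucose-6-phosphatase. Its word began 162 bases before the start, and it had flanking peaks 9.5 kb upstream and 1.09 kb past its 3′ end. Os9 (chr10:127121161-127121410, minus strand) encodes a lectin of the endoplasmic reticulum, with the word 73 bases before the start and a flanking peak 15.5 kb upstream. In the third such gene, Wdr37, the window with the variant belonged to another start inside the annotated gene, so it is not shown. The flanking peak of Wdr37 lay 1.84 kb from the outer end of the gene. Dusp1 (chr17:26508473-26508722, minus strand), a MAP kinase phosphatase, had its word 143 bases before the start and a flanking peak 4.13 kb upstream.

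G6pc: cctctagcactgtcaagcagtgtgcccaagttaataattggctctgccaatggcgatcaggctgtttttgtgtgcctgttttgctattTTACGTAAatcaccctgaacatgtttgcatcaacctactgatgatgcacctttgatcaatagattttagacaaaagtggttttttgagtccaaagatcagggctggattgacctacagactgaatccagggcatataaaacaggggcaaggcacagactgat

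Os9: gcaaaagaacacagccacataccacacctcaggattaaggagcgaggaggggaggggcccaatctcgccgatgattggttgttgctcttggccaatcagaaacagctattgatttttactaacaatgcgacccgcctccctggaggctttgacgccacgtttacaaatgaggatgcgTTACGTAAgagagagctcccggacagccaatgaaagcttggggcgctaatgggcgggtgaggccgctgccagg

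Dusp1: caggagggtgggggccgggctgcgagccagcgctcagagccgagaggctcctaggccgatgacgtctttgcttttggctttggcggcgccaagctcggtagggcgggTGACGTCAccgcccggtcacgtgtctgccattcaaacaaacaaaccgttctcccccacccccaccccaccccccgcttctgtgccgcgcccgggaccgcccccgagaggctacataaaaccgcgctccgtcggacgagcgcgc

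Flanking peaks were one of 6 positional classes of the 3128 autosomal peaks, of which they made up 17.2% (15.9 to 18.6%). More peaks lay inside coding genes 1 to 20 kb from an end (857, 27.4%) or deeper (699, 22.3%). Fewer lay over 20 kb from coding genes and outside all genes (443, 14.2%), within 1 kb of a coding gene end (339, 10.8%), or in noncoding genes alone (252, 8.06%). At the lower limit of the class, the closest flanking peaks were those of Macir, Abhd5 and Dixdc1 at 1005, 1021 and 1069 bp, and the closest peaks outside it those of S100a13, Dnajc15 and Spred1 at 988, 975 and 973 bp. At the upper limit, Arhgap40, Mrps33 and Atp8b4 were inside at 19.927, 19.837 and 19.763 kb, and Chd7, Actr2 and Clic4 outside at 20.011, 20.078 and 20.123 kb.

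Flanking peaks were denser close to genes than farther out. Their median distance to the nearest coding gene was 6.84 kb, with quartiles at 3.22 and 11.9 kb. Counted from the gene table, the sequence in which a flanking peak could fall came to 288 Mb, a figure that may include sequence where reads cannot be placed. Between 1 and 5 kb from a gene there were 213 peaks in 93.5 Mb, or 2.28 per Mb. Between 5 and 20 kb there were 325 in 195 Mb, or 1.67 per Mb. The ratio was 1.37 (1.14 to 1.63; two-sided exact binomial test on the share of available sequence, p = 0.000458). Examples within 5 kb are the peaks of Syk, a tyrosine kinase of immune receptors, at 1.51 kb, of Prtn3, a neutrophil granule protease, at 1.72 kb, and of Hhex, a homeobox gene of blood progenitors, at 2.27 kb.

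The peaks leaned to the upstream side of genes. The strand of the nearest gene was tabulated for 429 of the 538 peaks (79.7%). Of these, 257 lay on the 5′ side, at 2.12 per Mb of 5′ flank, and 172 on the 3′ side, at 1.59 per Mb of 3′ flank. The ratio was 1.33 (1.1 to 1.63; two-sided exact binomial test on available sequence, p = 0.00366). The other 109 peaks, beside genes with no tabulated strand, had a density of 1.85 per Mb (1.52 to 2.23), close to the 1.87 of the whole class.

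On both sides, density was lower at 5 to 20 kb than at 1 to 5 kb. It went from 2.81 to 1.8 per Mb on the 5′ side and from 1.85 to 1.45 on the 3′ side. In finer bins of the class, only the 5′ side fell at every step, and the intervals of neighbouring bins overlapped. The 5′ density was 3.21 per Mb at 1 to 2 kb (2.23 to 4.49), 2.66 at 2 to 5 kb, 2.04 at 5 to 10 kb, 1.8 at 10 to 15 kb and 1.41 at 15 to 20 kb (0.954 to 2.02). The 3′ density was 1.49 per Mb at 1 to 2 kb (0.852 to 2.42), 2.0 at 2 to 5 kb, 1.47 at 5 to 10 kb, 1.54 at 10 to 15 kb and 1.3 at 15 to 20 kb (0.827 to 1.96), with no such order. Just outside the class, peaks within 1 kb stood at 8.47 per Mb (6.88 to 10.3) on the 5′ side and 1.84 on the 3′ side, and peaks at 20 to 50 kb at 1.31 and 0.998. The 5′ to 3′ ratio was 1.52 (1.11 to 2.09) at 1 to 5 kb and 1.24 (0.96 to 1.61) at 5 to 20 kb. Those ratios differed by a factor of 1.23 with an interval of 0.827 to 1.82. A difference in lean between near and far flank, or a steeper fall on the 5′ side, was therefore not detectable.

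**Figure D1:**
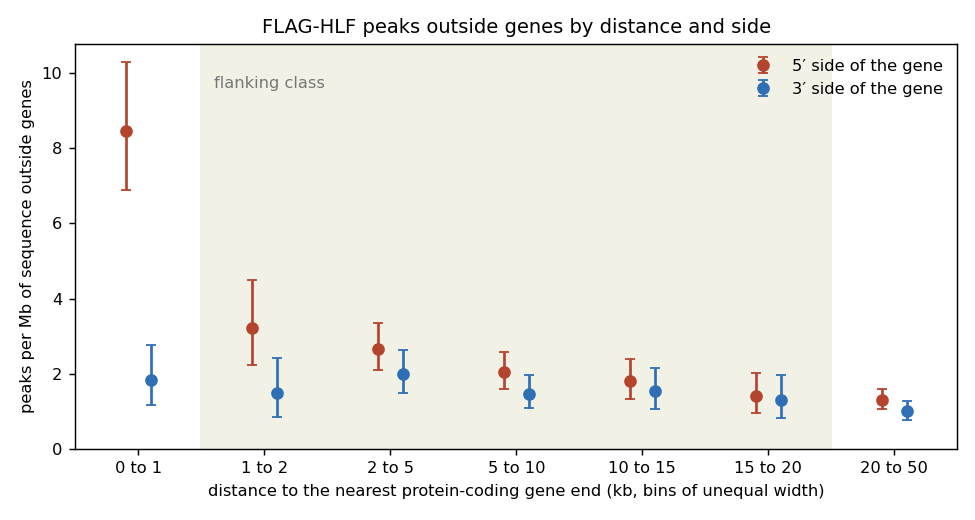
Peaks outside genes per Mb of available sequence (vertical axis) by distance to the nearest protein-coding gene end in kb (horizontal axis), for the 5′ side (red) and 3′ side (blue) of genes with a tabulated strand. Bars are exact Poisson 95% intervals, and the shaded bins are the flanking class, where the 5′ density goes from 3.21 to 1.41 per Mb and the 3′ density lies between 1.3 and 2.0.

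The orientation of the pair of coding genes around a peak gave the same picture. Where both genes pointed away from the peak (divergent genes), there were 129 flanking peaks at 2.62 per Mb (2.19 to 3.12). Between genes in the same direction there were 181 at 1.62 per Mb (1.39 to 1.88), and between genes pointing at each other 46 at 1.3 per Mb (0.955 to 1.74). The divergent interval overlapped neither of the other known orientations, which overlapped each other. For 182 peaks the orientation was not known, and their density was 1.97 per Mb (1.69 to 2.28). This is not independent of the 5′ lean, since every flank between divergent genes is a 5′ flank. The antiviral genes Rsad2 and Cmpk2 are a divergent pair 12.7 kb apart, with a flanking peak 3.86 kb upstream of Rsad2 and another 2.31 kb upstream of Cmpk2. The SLAM family genes Slamf7 and Cd48 are another, 28.2 kb apart, with peaks 7.59 and 6.79 kb upstream of each.

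**Figure D2:**
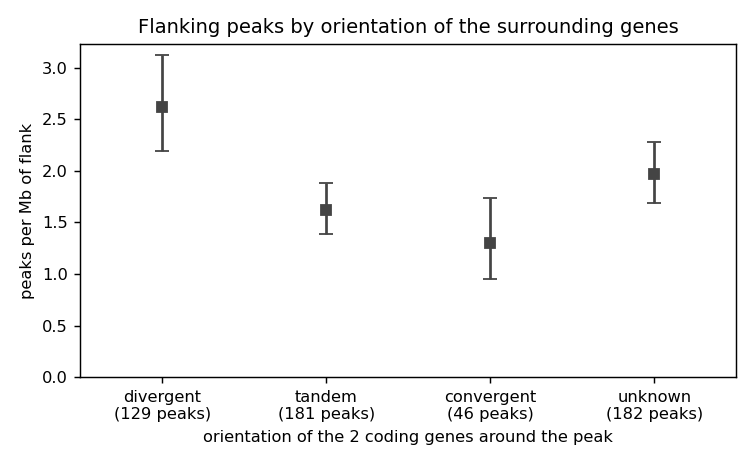
Flanking peaks per Mb of flank (vertical axis) by the orientation of the coding genes on either side (horizontal axis), with exact Poisson 95% intervals. The divergent class stands at 2.62 per Mb, above the tandem class at 1.62 and the convergent class at 1.3.

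The intergenic gap around a flanking peak had a median width of 41.1 kb (quartiles 21.7 and 82.5 kb) and ranged from 2.97 to 2774 kb. A single coding gene had an end within 20 kb of 328 peaks, 2 genes did for 153, and 3 or more for 57. The most crowded was a peak 2.46 kb from the predicted gene Gm44805, with 7 coding genes in reach, among them the apolipoprotein genes Apoe, Apoc1, Apoc2 and Apoc4. The Prtn3 peak had 6, among them Elane, the neutrophil elastase gene, and Cfd, the complement factor D gene. The end of a noncoding gene lay within 1 kb of 19 flanking peaks, an lncRNA gene for 13 peaks, a pseudogene for 3 and a tRNA gene for 3. Of the 13 peaks beside lncRNA genes, 4 lay on the 5′ side, 6 on the 3′ side, and 3 beside genes with no tabulated strand.

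Flanking peaks lay across all 19 autosomes, from 1.23 per Mb of flank on chromosome 7 (33 peaks, 0.847 to 1.73) to 2.66 on chromosome 15 (27 peaks, 1.75 to 3.87). The interval of chromosome 7 did not reach the density of 1.87 over all autosomes, while those of the other 18 held it. The 19 intervals were not adjusted for their number, and no test between chromosomes was run. Flanking peaks made up 13% to 21.2% of the peaks of a chromosome, lowest on chromosome 13 and highest on chromosome 7. Chromosome 15 carries the flanking peaks of Galnt6, a mucin glycosylation enzyme gene, at 6.84 and 9.2 kb, and of Nr4a1 at 9.8 kb.

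**Figure D3:**
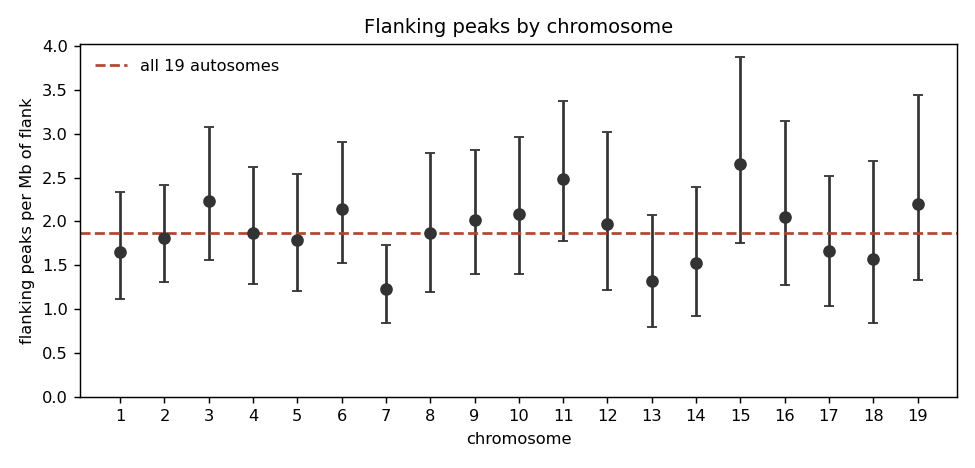
Flanking peaks per Mb of flank (vertical axis) on each autosome (horizontal axis), with exact Poisson 95% intervals, and the value over all autosomes of 1.87 per Mb as a dashed line. Chromosome 7, at 1.23, is the one whose interval stays below the line.

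Some flanking peaks came in close groups. Another peak of any class lay within 25 kb of 125 of the 538 flanking peaks, or 23.2% (19.7 to 27%). Peaks inside genes at 1 to 20 kb from an end had a like share (195 of 857, 22.8%), with an odds ratio of 1.03 (0.795 to 1.33; Fisher's exact test, p = 0.845, adjusted over 2 tests 0.845). Distal intergenic peaks had 87 of 443, or 19.6%, with an odds ratio of 1.24 (0.91 to 1.69; Fisher's exact test, p = 0.186, adjusted 0.371). Neither difference passed the test, and the intervals allow odds up to 1.33 and 1.69 times as high. Of the 125, the nearest other peak was itself a flanking peak for 59 (47.2%), in a gene body 1 to 20 kb from an end for 35 (28%) and at a gene end for 13 (10.4%). Over all autosomal peaks these classes make up 17.2, 27.4 and 10.8%. Neighbours share a position, so a neighbour of the same class follows in part from the rule.

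The closest pairs of flanking peaks lay beside 5 genes. Beside Ffar3, a receptor for short-chain fatty acids, the centres were 558 bp apart (chr7:30842135-30842534 and chr7:30842693-30843092), with Ffar1 and Ffar2 also in reach. Beside Auh, an enzyme gene of leucine breakdown, they were 647 bp apart, 12.1 and 12.8 kb past the 3′ end. Beside Ifngr1 they were 907 bp apart, and beside Morf4l1, a chromatin protein gene, 1063 bp. The Morf4l1 pair lay on either side of a lysine tRNA gene, n-TKctt18, at 183 and 808 bp from it. Beside Arpp19, which encodes an inhibitor of the phosphatase PP2A, the centres were 1401 bp apart (chr9:75063427-75063826 and chr9:75064828-75065227), 3.31 and 4.71 kb past the 3′ end and in a gap of 9.48 kb before Myo5a. Of all adjacent flanking peaks, 3 pairs were within 1 kb and 33 within 25 kb.

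The 538 peaks had 511 nearest coding genes, or 2.49% of the 20560 autosomal coding genes tested. Of the 511, 486 had 1 flanking peak, 24 had 2 and 1 had more. The gene with more was Irf2bp2 (gene ID 270110; chr8:126588296-126593986), which encodes a transcriptional corepressor that binds IRF2. Its 4 flanking peaks lay 2.46 and 4.7 kb upstream (chr8:126596244-126596643 and chr8:126598482-126598881) and 2.4 and 15.1 kb downstream (chr8:126585702-126586101 and chr8:126573038-126573437). No other coding gene had an end within 20 kb of any of the 4, and neither the body of Irf2bp2 nor the 1 kb around its ends held a peak. The nearer upstream peak lay 275 bp from the lncRNA gene Gm31546. Id1, an inhibitor of bHLH factors (chr2:152736251-152737410), had flanking peaks 2.19 and 4.39 kb from the gene in addition to 1 at its end.

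Most flanked genes had no peak at their ends or in their body. A peak within 1 kb of an end was present for 13 of the 511 (2.54%, 1.36 to 4.31%), near the 1.82% over all coding genes. A peak in the gene body was present for 82 (16%, 13 to 19.5%), against 6.44% over all coding genes. With either, the count was 91 (17.8%) against 8.09%, which leaves 420 flanked genes with neither. Peaks in noncoding genes and distal peaks were not counted here, and Il1b, Dusp1 and Hhex are among the flanked genes that were also nearest to such a peak. Flanked genes were longer than coding genes at large, with a median of 26.9 kb against 17.6 kb, and its part in the count of body peaks was not tested. Bmf is an example with all but an end peak: it had a flanking peak 4.83 kb upstream, 1 in the body at 2.04 kb from the start, and another flanking peak 6.3 kb past the 3′ end.

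**Figure D4:**
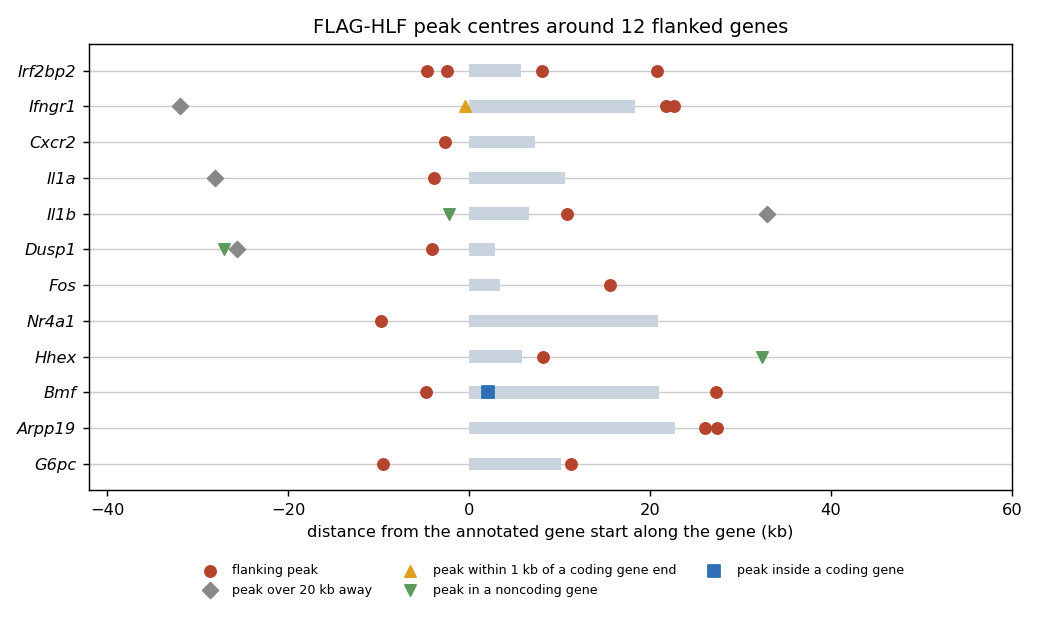
Peak centres around 12 flanked genes, by distance from the annotated gene start along the gene in kb (horizontal axis, upstream negative), 1 gene per line with the gene as a grey bar and peaks of each class by marker. Peaks near each gene are drawn, whichever gene is nearest to them. Not every peak in range is drawn, since the flanking peak of Il1a is missing from the Il1b line. Irf2bp2 has 4 flanking peaks and none in the gene, while Ifngr1 and Bmf have flanking peaks beside a peak at the gene end or in the body.

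Across 17 gene lists of blood cell biology, signalling and control tissues, 23 of 347 autosomal members were the nearest coding gene of a flanking peak, or 6.63% (4.25 to 9.78%), against 2.49% of all coding genes. By available sequence the lists had 4.47 flanking peaks per Mb (2.92 to 6.54) against 1.87 over all. Their median distance was 5.01 kb against 6.84 kb. The lists were chosen with earlier results of these data known, so these values are a description and no test was run. A list had 0 to 6 flanked genes, and the lists hold 15 to 26 autosomal genes each.

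Cytokine and chemokine receptors had 6 of 26 members flanked (23.1%, 8.97 to 43.6%), and the intervals of the lists overlapped, so no order among them is given. With peaks up to 10 kb alone the receptors had 3 of 26. The interferon receptors made up 3 of the 6. Ifngr1, a chain of the interferon gamma receptor, had 2 flanking peaks 3.44 and 4.35 kb past its 3′ end (chr10:19613474-19613873 and chr10:19614381-19614780), with Il22ra2 also in reach, and 1 peak at 429 bp before its start. Ifnar1 and Ifnar2, the chains of the type I interferon receptor, had 1 each, 12.2 kb past the 3′ end and 17959 bp upstream. Cxcr2, the neutrophil receptor for CXC chemokines, had 1 at 2.68 kb upstream (chr1:74151111-74151510) in a gap of 5.76 kb. Il17ra, a chain of the interleukin-17 receptor, had 1 at 8.25 kb besides 2 in its body. Members with none included Flt3, Csf2ra, Csf2rb, Il6ra, Il6st, Tnfrsf1a and Cxcr4. Among receptor genes outside the list, Csf2rb2, Il21r and Lifr were flanked, at 3.96, 6.57 and 5.23 kb.

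Cytokines and chemokines had 3 of 23 members flanked (13%, 2.78 to 33.6%), all within 5 kb. Il1a and Il1b, the genes of interleukin-1 alpha and beta, are neighbours 54.4 kb apart. Il1a had a flanking peak 3.86 kb upstream (chr2:129313848-129314247) and Il1b 1 at 4.24 kb past its 3′ end (chr2:129360134-129360533). A peak in a noncoding gene lay 2.19 kb upstream of Il1b. Cxcl2, a neutrophil chemokine gene, had a peak 3.25 kb past its 3′ end, with Cxcl1 also in reach.

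AP-1 and immediate early genes, which respond within minutes to growth factors and stress, had 5 of 23 members flanked (21.7%, 7.46 to 43.7%), at a median distance of 5.75 kb. Fos, an AP-1 subunit, had 1 peak at 12.1 kb past its 3′ end, and Fosl1, a relative of Fos, 1 at 2.98 kb, with 5 coding genes in reach. Egr1, a zinc finger factor, had 1 at 5.75 kb, with 3 coding genes in reach. Nr4a1, an orphan nuclear receptor, had 1 at 9.8 kb upstream, and Dusp1 1 at 4.13 kb upstream (chr17:26512400-26512799), the peak beside the start sequence printed above. Members with none included Jun, Junb, Fosb, Atf3, Myc and Klf2. The signalling feedback list shares Dusp1 with this one and had 2 of 24 members flanked (8.33%), the other being Socs3, an inhibitor of JAK-STAT signalling, at 19.5 kb past its 3′ end.

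Stem and progenitor regulators had 4 of 24 members flanked (16.7%, 4.74 to 37.4%). These were Egr1 and Nr4a1, shared with the immediate early list, Hhex, and Cd34, a surface glycoprotein of progenitors. Hhex had its peak 2.27 kb past the 3′ end (chr19:37442800-37443199) and Cd34 at 16.4 kb past it. Among mast cell, basophil and eosinophil genes, 2 of 15 were flanked (13.3%, 1.66 to 40.5%). Ms4a2, a chain of the high-affinity IgE receptor, had a peak at 2.17 kb and Ccr3, the eotaxin receptor of eosinophils, at 17.2 kb, both past the 3′ end.

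The other lists with a flanked gene had 1 each. Granulocyte and monocyte genes had Prtn3 alone of 26 (3.85%), at 1.72 kb upstream (chr10:79877753-79878152). Integrins and adhesion molecules had 1 of 19 (5.26%). The BCL2 family and caspases had Bmf, a pro-apoptotic BH3-only gene, of 19 (5.26%). The liver controls had G6pc of 18 (5.56%), so a control list also stood above the 2.49% of all coding genes. The interval of each of these 4 lists held 2.49%.

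No member was flanked among B lineage genes (0 of 21), T and NK lineage genes (0 of 23), megakaryocyte and erythroid genes (0 of 17) or circadian and PAR bZIP genes (0 of 21). The same held for cell cycle genes (0 of 21), stromal controls (0 of 16) and neuronal controls (0 of 16). For 0 of 21, 3 counts would be a share of 14.3%, and the exact upper limit is 16.1%. The range over the 7 lists is 13 to 18.8% for 3 counts and 14.8 to 20.6% for the exact limit. At 2.49% a list of this size would hold less than 1 flanked gene, so a count of 0 cannot be told from the share over all genes. The lists do not hold every gene of a lineage. Outside them, Il2, Lag3 and Fcrl1, genes of lymphoid cells, were flanked at 2.49, 5.73 and 4.43 kb. Peaks at an end or in the body, present for 8.09% of all coding genes, were found for 6 of the 21 circadian and PAR bZIP genes, 5 of the 21 B lineage genes, 4 of the 23 T and NK lineage genes and 4 of the 16 neuronal controls. They were found for 2 of the 17 megakaryocyte and erythroid genes, 2 of the 21 cell cycle genes and 1 of the 16 stromal controls.

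**Figure D5:**
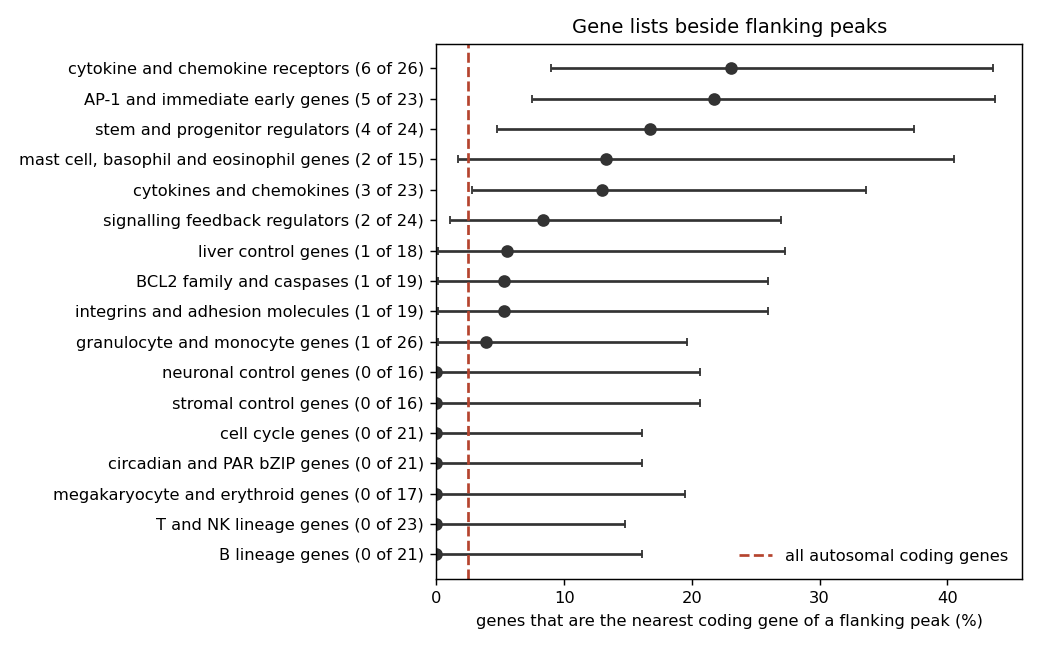
Share of each gene list's autosomal members that are the nearest coding gene of a flanking peak (horizontal axis, percent; counts in the labels), with exact 95% intervals, and the share over all autosomal coding genes of 2.49% as a dashed line. The receptor list at 23.1% and the immediate early list at 21.7% lie farthest to the right, and 7 lists are at 0.

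The rule that gives a peak to a gene changed which genes counted. Under a wider rule, every coding gene with an end within 20 kb of a flanking peak counted. This gave 33 of 347 list members, against 784 of all 20560 coding genes (3.81%). Elane, Fcgr2b and Lyz2 then joined Prtn3 in the granulocyte and monocyte list, for 4 of 26. Gfi1b, Cd4, Maff, Il4ra, Itgal, Bcl2l1 and Cdk6 joined in other lists. With peaks up to 10 kb alone, 16 of 347 members counted, against 349 of all 20560 (1.70%). When noncoding genes no longer removed a peak, 29 of 347 did, against 605 of all 20560 (2.94%).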

How the data were processed

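Anti-FLAG chromatin immunoprecipitation sequencing was done on 2 libraries. The authors deposited the FLAG-HLF peaks as a list of 3 columns with 3153 intervals, each 400 bp wide and with no score. The submitters' processing notes name Bowtie2 2.0.6, a read aligner, MACS2 2.0.10, a peak caller, and the genome build mm10. The sources used here do not give the step each served, the call settings or how peaks were set to 1 width. A fixed width hides how far a bound region reached, so centres were used.

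Gene positions, strands and start windows came from RefSeq tables (GRCm38.p6, the coordinates of mm10), after removal of genes starting below 3 Mb. Strand was tabulated for 16457 of 20560 coding genes. Available flank was counted base by base from the gene table, with no resampling. Intervals are exact 95% (Clopper-Pearson for shares, Poisson for densities), except odds ratios (Woolf) and the ratio of ratios (Wald). Tests were two-sided (Fisher's exact test for shares, exact binomial for densities; scipy 1.17.1), with a threshold of 0.05 and Benjamini-Hochberg adjustment over the 2 neighbour tests. The functions were tested on simulated data. No exon or UTR was assigned.

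Named genes were those with 3 or more flanking peaks, or with 2 if listed or both within 5 kb, flanked list members, peaks at the limits of the class and the 5 closest pairs. Others (Pxylp1, Syk, Galnt6, Rsad2, Cmpk2, Slamf7, Cd48, Gm44805, Os9 and Wdr37, and the families in the closing section) were chosen after their values were seen. The same holds for Csf2rb2, Il21r, Lifr, Il2, Lag3 and Fcrl1, named beside lists they are not on. The class and the lists were chosen with earlier results of these data known. All 351 list genes matched, 4 of them on X. Some flanked genes are not reported here.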

Additional observations from a re-analysis of the deposited data

How the results depend on the processing

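The share of peaks that flank genes follows its limits by construction: it was 11.5% with an upper limit of 10 kb, 23.9% with 50 kb, 15.1% with a lower limit of 2 kb and 20.5% when only coding genes removed a peak. With whole intervals outside genes it was 17.1%. The near to far ratio was 1.27 to 1.37 and the 5′ to 3′ ratio 1.36 to 1.46 over 3 alternatives each, all past the threshold. The neighbour odds ratios (1.0 to 1.15) stayed short of it at 10 and 50 kb. Per coding gene, chromosome 15 was 1.33 times the autosomal value, against 1.42 per Mb, and chromosomes 3 and 6 stood above it (36.6 and 35.7 flanking peaks per 1000 coding genes, against 34.9). The 10-base PAR bZIP consensus was in 0 of 513 start windows of flanked genes (exact upper limit 0.717%), against 0.174% of all coding windows. No difference was detectable, since the limit lies above that share. With either 8-base word the share was 0.585%, against 1.03% of all. By construction, the longer word cannot raise the share. Of 17 lists, 5, 3 and 3 moved by over 1.5 times with every gene within 20 kb, the 10 kb limit and coding genes alone. The order of the lists followed the setting: at 10 kb the receptors had 3 of 26 flanked and immediate early genes 4 of 23, and with coding genes alone stem regulators had 6 of 24. A stricter peak threshold was not run, since the list has no score. No paired analysis was possible because there is 1 library with a peak list, which also leaves no replicate to omit.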

Other observations

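Several gene groups are described here from the 511 nearest genes. They were picked, and their members listed by hand, after the flanked genes were seen, so their counts are a description with no test, beside the 2.49% of all coding genes that were flanked. Of 15 autosomal SRC, TEC, SYK and FES family kinases, which signal from immune and growth factor receptors, 4 were flanked (26.7%). Syk had its peak 1.51 kb upstream, Fes 2.18 kb past the 3′ end, Lyn at 12.7 kb and Tec 15.3 kb upstream. Vav1, an exchange factor that such kinases phosphorylate, had a peak 14.1 kb past its 3′ end, and was the 1 flanked gene of 3 in its family. It lay 3.85 kb from a peak nearest to Adgre1, which encodes the macrophage antigen F4/80. Of 9 SLAM family receptors, Slamf7, Cd48 and Cd84 were flanked, all upstream, at 7.59, 6.79 and 11.9 kb, and all within one gene cluster on chromosome 1.

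Of a hand-picked set of 15 autosomal interferon-induced genes, 4 were flanked (26.7%). The 4 peaks were all upstream, at 1.8 kb for Slfn2, 2.31 kb for Cmpk2, 3.22 kb for Gbp5 and 3.86 kb for Rsad2. In the leukotriene pathway Alox5 and Lta4h, its 5-lipoxygenase and leukotriene A4 hydrolase genes, were flanked upstream at 7.16 and 8.9 kb, or 2 of 7 autosomal members. Irf2bpl, a relative of Irf2bp2, had a peak 3.82 kb upstream, and Nr4a3, a relative of Nr4a1, 2.28 kb upstream, for 2 of 3 members in each family. Of 12 annexins, which bind membranes in the presence of calcium, Anxa1, Anxa2 and Anxa5 were flanked, at 13.3 kb upstream, and 14.1 and 1.81 kb past the 3′ end.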
